A study of Mus musculus with 8 samples.

Results

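Ifitm1, Ifitm2 and Ifitm3 are the 3 interferon-induced transmembrane genes described here, out of 52636 genes in the count table. They were matched by symbol to Ensembl identifiers with GENCODE mouse release M21, and all 3 were found and passed the filter on low counts. The family was chosen by its values in these same libraries, namely its differences between the 4 groups below in earlier results. These differences are therefore given as descriptions, with no test. The libraries came from immune cells of mouse spleens and lymph nodes, taken at 35 to 55 days of age before any sign of disease. All cells were cultured for 4 days with anti-CD3 (1 μg/ml), IL23 (20 ng/ml), human TGF-β (4 ng/ml), IL6 (20 ng/ml) and IL12 (3 ng/ml), a TH1/TH17 stimulation that every group shares. The 4 groups are TCR1640 males, TCR1640 females, SJL/J males and SJL/J females, with 2 columns each. In TCR1640 mice, bred on SJL/J, a transgene encodes a T cell receptor against myelin, and the animals develop encephalomyelitis without immunisation. SJL/J mice are labelled as the wild type. The study set out to compare the sexes within each strain, and its layout also sets the strains against each other within each sex.

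IFITM proteins are small membrane proteins that interfere with the fusion of virus and host membranes, and so limit the entry of many enveloped viruses. Type I interferon and interferon gamma both induce them, and many cells also hold a basal level. Ifitm3 acts mainly in endosomes and protects mice from influenza virus. Ifitm1 is found more at the cell surface, and its human counterpart was first described on leukocytes as a surface antigen linked to lymphocyte adhesion. Ifitm2 is the member closest to Ifitm3 in its place within the cell.

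Facts of the whole table bear on what follows. Column totals ran from 3765291 to 5116467 counts. The 2 columns of a group differed by hardly more than sampling noise, with a chi-square per degree of freedom of 1.05 to 1.08 within groups and 3.12 to 17.1 between groups. They were summed and counted as 1 sample, so n = 1 per group and no comparison has a replicate check. Intervals given here cover counting error only. The sex labels matched in all 8 columns: Eif2s3y had 87 to 124 counts in male columns and 0 in female columns. The strain labels were contradicted by receptor segments. Among counts on joining segments of the receptor alpha chain, Traj43 held 2.91% and 5.04% in males and females labelled TCR1640, against 79.2% and 75.6% in males and females labelled SJL/J. A receptor transgene usually makes T cells share 1 set of segments, and here a single segment dominates in the libraries labelled wild type. Libraries are named below by their strain label, and each direction between strains has to be read with this contradiction. Counts also lay often on features of the other strand: among 985 coding genes paired with an overlapping feature not annotated as coding, 75.7% of those features drew more counts than the coding gene (95% interval 72.9 to 78.4). In the female columns Tsix, which overlaps Xist on the other strand, had 3553 to 3935 counts, against 668 to 784 for Xist. The strand setting of the counting is not given in the sources used here. No exon of Ifitm1, Ifitm2 or Ifitm3 overlaps an opposite-strand gene. If the setting was reversed, their counts come from reads off the transcribed strand, and the levels given below are uncertain. This was not tested.

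The 3 genes lie within 55.9 kb on chromosome 7 (GRCm38, the assembly that mm10 names). Ifitm2 (ENSMUSG00000060591) spans 140954837 to 140955987 on the minus strand. Ifitm1 (ENSMUSG00000025491) spans 140967221 to 140969825 on the plus strand. Ifitm3 (ENSMUSG00000025492) spans 141009586 to 141010770 on the minus strand. Ifitm2 and Ifitm3 each have 2 exons and 1 annotated transcript, and Ifitm1 has 3 transcripts. The RefSeq promoter windows of the 3 members follow, from 250 bases before the start of transcription to 50 after it on GRCm38.p6, read 5′ to 3′ on the strand of the gene. They are shown because interferon acts on these genes through their promoters, and because the 3 genes differed together between the strain labels. Capitals mark each match to GAAA, any 2 bases and GAAA again, the core of the interferon-stimulated response element, searched on both strands. Ifitm1 is at chr7:140967826-140968125 (plus strand), Ifitm2 at chr7:140955912-140956211 (minus strand) and Ifitm3 at chr7:141010695-141010994 (minus strand).
Ifitm1: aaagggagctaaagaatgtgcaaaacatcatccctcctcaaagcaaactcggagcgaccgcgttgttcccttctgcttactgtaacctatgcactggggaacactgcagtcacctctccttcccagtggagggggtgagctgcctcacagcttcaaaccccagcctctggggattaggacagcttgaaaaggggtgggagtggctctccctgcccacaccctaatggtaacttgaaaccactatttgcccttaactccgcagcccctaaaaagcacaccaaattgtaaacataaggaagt
Ifitm2: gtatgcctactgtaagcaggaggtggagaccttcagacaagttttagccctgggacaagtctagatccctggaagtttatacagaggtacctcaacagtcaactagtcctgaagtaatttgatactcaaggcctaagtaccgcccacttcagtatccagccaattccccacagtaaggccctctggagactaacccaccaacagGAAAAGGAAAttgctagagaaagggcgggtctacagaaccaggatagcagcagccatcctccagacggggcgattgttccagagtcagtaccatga
Ifitm3: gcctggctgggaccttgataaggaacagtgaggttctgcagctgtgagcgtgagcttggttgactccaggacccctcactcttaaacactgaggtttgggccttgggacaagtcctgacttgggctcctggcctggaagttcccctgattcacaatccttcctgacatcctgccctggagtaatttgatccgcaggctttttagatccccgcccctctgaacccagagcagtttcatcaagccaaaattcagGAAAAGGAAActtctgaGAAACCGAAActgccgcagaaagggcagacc

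Ifitm3 held 2 matches, GAAAAGGAAA and GAAACCGAAA, both within the 50 bases after the start. Ifitm2 held 1 match, GAAAAGGAAA, from 46 to 37 bases before its start. Ifitm1 held none in this window, and its earliest start in GENCODE lies outside it. Among 27025 genes, 3.49% had a match in their first listed window. Of the type I interferon stimulated genes listed below, 17 of 28 with a window had one, and of the interferon gamma response genes 11 of 18. The gamma-activated site, searched on both strands as TTC, any 3 bases and GAA, matched once in Ifitm3, where it lies after the first match and overlaps the second, and not in Ifitm1 or Ifitm2. It matched in 8.47% of all first windows. A match is a run of letters and not a shown binding site.

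The coding sequences of the members are similar, which limits how well reads can be told apart. Over aligned bases, Ifitm1 and Ifitm2 were 82.1% identical, Ifitm1 and Ifitm3 82.1%, and Ifitm2 and Ifitm3 80.9%. Of all runs of 50 bases in their transcripts, 5.02% in Ifitm1 and 10.0% in Ifitm3 also occur in another annotated gene, against 48.5% in Ifitm2. Most of the last share comes from Gm45717, a protein-coding annotation on the same strand that covers 268 of the 655 exon bases of Ifitm2. Gm45717 had 0 counts in all 8 columns. How reads in the shared sequence were assigned is not given in the sources used here, so the level of Ifitm2 is uncertain.

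All 3 members were lower in the libraries labelled TCR1640 than in those labelled SJL/J, in both sexes, and Ifitm3 differed most. Values are CPM, the counts of a gene per 1000000 counts of its TMM-scaled library. Fewer cells of a type and less RNA per cell cannot be told apart in such bulk libraries.

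**Figure D1:**
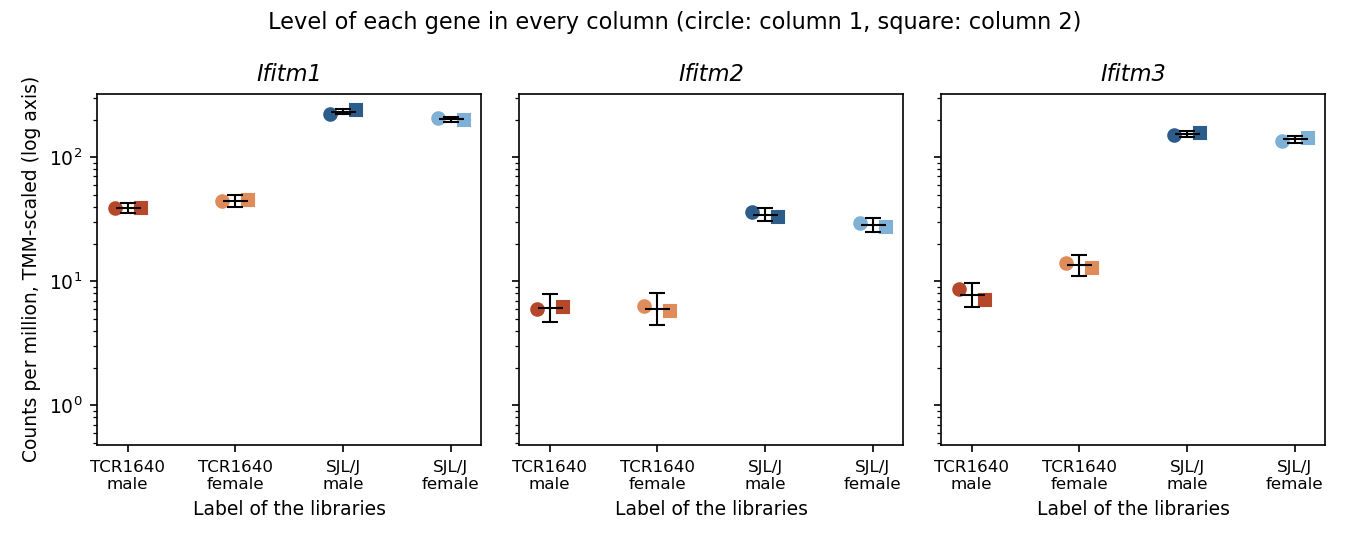
CPM (TMM-scaled, log axis) of Ifitm1, Ifitm2 and Ifitm3 in each of the 8 columns (circles and squares are the 2 columns of a group), with the summed value and its 95% counting interval in black. For each gene, the 4 columns labelled TCR1640 lie below the 4 labelled SJL/J, and for Ifitm3 those of males labelled TCR1640 (8.64 and 7.04) are the lowest.

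Ifitm3, the endosomal restriction factor, had 8.64 and 7.04 CPM in the columns of males labelled TCR1640 and 14.1 and 12.8 CPM in those of females labelled TCR1640. It had 151 and 156 CPM in males labelled SJL/J and 135 and 143 CPM in females labelled SJL/J. The columns of the 2 strain labels did not come near each other. The summed counts were 78 and 105 in males and females labelled TCR1640, against 1205 and 1163 in males and females labelled SJL/J. Between males this is 19.6-fold lower in the library labelled TCR1640, a log2 ratio of -4.29 (95% counting interval -4.64 to -3.96). Between females it is 10.3-fold lower, a log2 ratio of -3.37 (-3.67 to -3.08). Ifitm3 ranked 90th from the lowest of 15791 ratios in males and 136th of 15789 in females.

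Ifitm1, the member of the cell surface, had 38.7 and 39.3 CPM in the columns of males labelled TCR1640 and 44.0 and 44.9 CPM in those of females labelled TCR1640. It had 225 and 239 CPM in males labelled SJL/J and 206 and 201 CPM in females labelled SJL/J. Again no column of one strain label overlapped those of the other. The gene was 5.94-fold lower in males labelled TCR1640 (log2 ratio -2.57, interval -2.73 to -2.41) and 4.56-fold lower in females (log2 ratio -2.19, interval -2.36 to -2.02).

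Ifitm2 had 5.96 and 6.26 CPM in the columns of males labelled TCR1640 and 6.29 and 5.77 CPM in those of females labelled TCR1640. It had 36.3 and 32.7 CPM in males labelled SJL/J and 29.3 and 27.5 CPM in females labelled SJL/J. Its ratios stood close to those of Ifitm1. The log2 ratio was -2.50 in males (-2.92 to -2.09) and -2.24 in females (-2.72 to -1.78), from 61 and 47 counts in males and females labelled TCR1640, against 271 and 237 in males and females labelled SJL/J.

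All 3 members were thus at least 2-fold lower with an interval that excludes equality, in males and in females. The same rule held for 6.23% of all 15791 genes in males, for 5.33% of 15789 in females, and for 3.45% in both sexes. These comparisons chose the family, so nothing is read from the members' count. The median log2 ratio over all genes was -0.0039 in males and 0.02 in females.

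**Figure D2:**
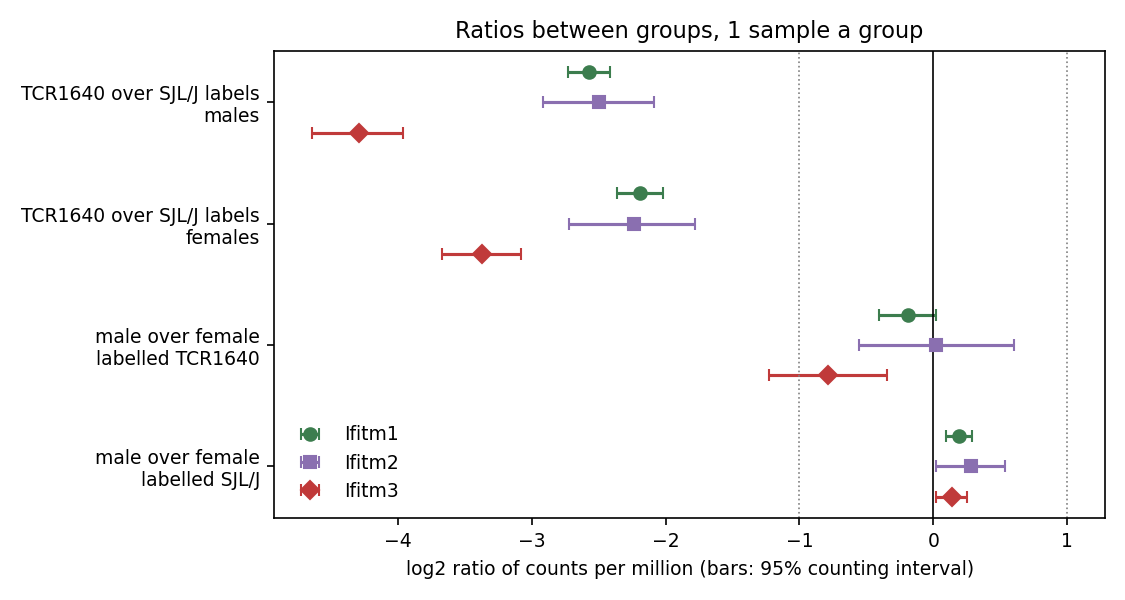
Log2 ratios of CPM for each member in the 4 comparisons, with 95% counting intervals and 1 sample a group (dotted lines at 2-fold). The strain-label ratios of Ifitm3 (-4.29 in males, -3.37 in females) lie apart from those of Ifitm1 and Ifitm2, and the ratios of males over females lie near 0 except for Ifitm3 in the libraries labelled TCR1640 (-0.78).

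The make-up of the family also differed between the strain labels, because Ifitm3 differed more than the other 2 members. Per kilobase of exon, Ifitm3 and Ifitm1 stood at similar levels in the libraries labelled SJL/J, and Ifitm3 stood below Ifitm1 in those labelled TCR1640. The length used is all annotated exon bases of a gene, 1094 for Ifitm1 over its 3 transcripts and 678 for Ifitm3. Comparisons of members per kb depend on this choice of length, which the intervals do not cover. Ifitm3 had 11.5 and 19.9 CPM per kb in males and females labelled TCR1640, against 226 and 205 CPM per kb in males and females labelled SJL/J. Ifitm1 had 35.6 and 40.7 CPM per kb in males and females labelled TCR1640, against 212 and 186 CPM per kb in males and females labelled SJL/J. The ratio of Ifitm3 to Ifitm1 per kb was 0.324 in males labelled TCR1640 (interval 0.250 to 0.414) and 0.488 in females labelled TCR1640 (0.389 to 0.609). It was 1.07 in males labelled SJL/J (0.991 to 1.15) and 1.11 in females labelled SJL/J (1.03 to 1.19). By contrast the ratio of Ifitm2 to Ifitm1 was 0.262 and 0.226 in males and females labelled TCR1640, against 0.248 and 0.233 in males and females labelled SJL/J. Each of these 4 values lies within the intervals of the other 3 (0.197 to 0.344, 0.163 to 0.307, 0.218 to 0.282 and 0.203 to 0.268).

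Over its full 655 exon bases Ifitm2 was the lowest member per kb in all 4 groups. It had 9.33 and 9.20 CPM per kb in males and females labelled TCR1640, against 52.6 and 43.3 CPM per kb in males and females labelled SJL/J. If reads in the 268 bases shared with Gm45717 were not counted, these levels are too low. Its place below Ifitm3 is then uncertain beyond counting error. In males labelled TCR1640 the ratio of Ifitm3 to Ifitm2 was 1.24 (0.872 to 1.76), so the order of these 2 neighbours is not settled there. It was 2.16 in females labelled TCR1640 (1.52 to 3.11), against 4.30 and 4.74 in males and females labelled SJL/J. The order of Ifitm3 and Ifitm1 is likewise not settled in males labelled SJL/J, where the interval of their ratio includes 1. Among all genes that passed the filter, Ifitm3 stood above 70.2% and 79.0% by level per kb in males and females labelled TCR1640, against 97.2% and 97.0% in males and females labelled SJL/J.

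**Figure D3:**
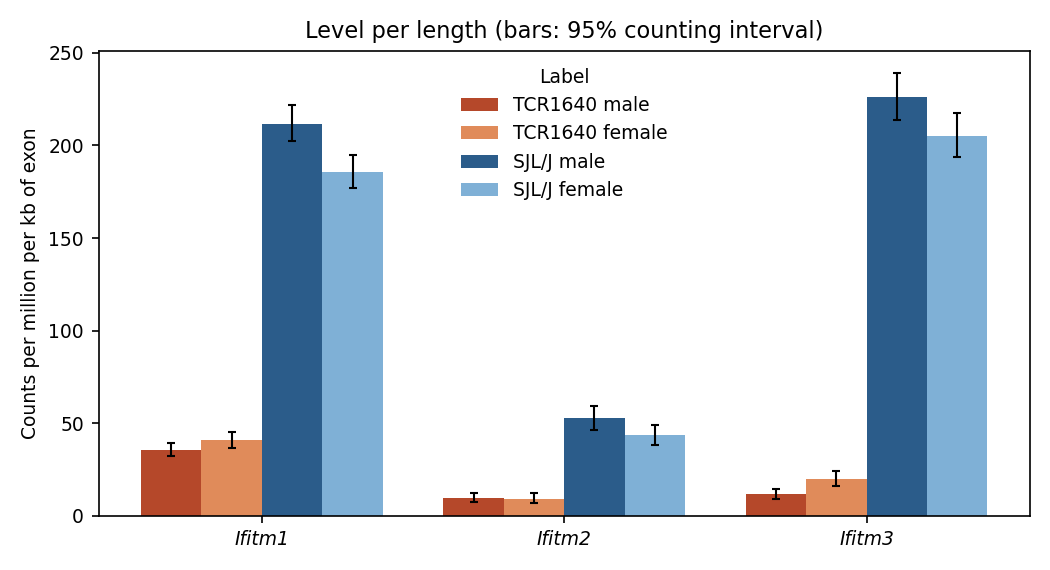
CPM per kilobase of exon for each member in the 4 groups, 1 sample each, with 95% counting intervals. Ifitm3 and Ifitm1 reach similar heights in the libraries labelled SJL/J (226 and 212 in males), while Ifitm3 (11.5 in males) is below Ifitm1 (35.6 in males) in those labelled TCR1640.

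The study's own question was the difference between the sexes. No member was at least 2-fold apart between males and females of either label with an interval that excludes equality. In the libraries labelled TCR1640, 0.98% of 15719 genes met this rule with a higher male value and 1.82% with a lower one, and in those labelled SJL/J 0.976% and 1.38% of 15786. Ifitm3 had its lower value in the male of the libraries labelled TCR1640, with a log2 ratio of -0.78 (-1.23 to -0.35) from 78 and 105 counts. It was slightly higher in the male labelled SJL/J, with a log2 ratio of 0.14 (0.02 to 0.26). The Ifitm3 columns of the 2 sexes did not overlap within either label, but the columns of a group count as 1 sample and give no replicate check. Ifitm1 stood at -0.19 (-0.40 to 0.02) in the libraries labelled TCR1640 and at 0.19 (0.09 to 0.29) in those labelled SJL/J. Ifitm2 stood at 0.02 (-0.55 to 0.60) in the libraries labelled TCR1640 and at 0.28 (0.02 to 0.54) in those labelled SJL/J. The sex difference in the libraries labelled TCR1640 minus that in those labelled SJL/J was -0.92 for Ifitm3 (-1.36 to -0.48), -0.38 for Ifitm1 (-0.61 to -0.15) and -0.26 for Ifitm2 (-0.86 to 0.34). Among the 25 type I interferon stimulated genes described below, 3 were at least 2-fold lower in the male labelled TCR1640, namely Ifit1 (-2.58), Ifit1bl1 (-1.99) and Oasl2 (-1.94), and the median was -0.28. In the libraries labelled SJL/J none of the 25 was past 2-fold, and the median was 0.09. The summed neutrophil markers described below were 16.5 CPM in males and 21.4 CPM in females labelled TCR1640, and 184 CPM in males and 74.8 CPM in females labelled SJL/J, and their part in these differences was not tested.

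The rest of the family was hardly counted. Ifitm5, known for its part in bone formation, had 2 and 3 counts in males and females labelled TCR1640, against 6 and 10 in males and females labelled SJL/J. Ifitm6 had 3 and 2 counts in males and females labelled TCR1640, against 6 and 7 in males and females labelled SJL/J. Ifitm7, on chromosome 16, had 12 and 6 counts in males and females labelled TCR1640, against 6 and 5 in males and females labelled SJL/J. Its exons overlap 2900011O08Rik on the other strand, so it is uncertain. None of these passed the filter, and all their strain-label intervals include equality. Ifitm10 also stayed under the filter and went the other way, with 20 and 13 counts in males and females labelled TCR1640, against 2 and 4 in males and females labelled SJL/J. Its log2 ratio was 2.98 in males (0.94 to 6.12) and 1.80 in females (0.10 to 3.87).

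Some reads may belong to pseudogene copies of the members. Gm7676, a pseudogene on chromosome 8 that shares runs of 50 bases with Ifitm1 and Ifitm3, had 39 and 55 counts in males and females labelled TCR1640, against 223 and 215 in males and females labelled SJL/J. Its log2 ratio between strain labels was -2.86 in males (-3.39 to -2.36) and -1.87 in females (-2.32 to -1.43). Its sex ratio was -0.85 (-1.48 to -0.23) in the libraries labelled TCR1640 and 0.14 (-0.14 to 0.42) in those labelled SJL/J. Reads of Ifitm1 or Ifitm3 and reads of this copy cannot be told apart where the letters are shared. Another copy, Gm11951 on chromosome 11, had 2 and 3 counts in males and females labelled TCR1640, against 13 and 21 in males and females labelled SJL/J. It shares 14.9% of the runs of 50 bases of Ifitm2, Gm8865 12.4%, Gm45308 7.76%, Gm2840 5.61% and Gm45432 2.81%. In the same order of groups, Gm8865 had 0 and 6 counts, against 13 and 15. Gm45308 had 5 and 3 counts, against 11 and 11. Gm2840 had 1 and 0 counts, against 3 and 1, and Gm45432 had 0 and 0, against 2 and 1.

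Of 9 other annotated genes within 50 kb of the cluster, 2 passed the filter. Nlrp6, which encodes an inflammasome sensor best known from the gut, had 20 and 9 counts in males and females labelled TCR1640, against 64 and 65 in males and females labelled SJL/J. Its log2 ratio was -2.02 in males and -2.75 in females. Pgghg, a glycosidase acting on hydroxylysine-linked sugars of collagen, stood at -0.90 in males, short of 2-fold, and -1.14 in females. Any link of these ratios to the place of the genes on the chromosome was not tested.

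Most other interferon genes did not share the difference of the Ifitm genes. The pathway lists below were chosen for this report with earlier results known, and are described by counts and medians only. Of 37 type I interferon stimulated genes, 25 passed the filter. In males 0 of these were at least 2-fold higher and 3 were at least 2-fold lower in the library labelled TCR1640, with a median log2 ratio of 0.17. The lower ones were Isg20, an exonuclease (-1.46), Oasl2 (-3.34, from 5 against 40 counts) and Ifih1, a sensor of viral RNA (-1.39). In females 5 were higher and 1 lower, with a median of 0.50. The higher ones were Ifit1 (1.68), Ifit1bl1 (2.73), Ifit2 (1.22), Usp18 (1.09) and Samd9l (1.55), and the lower one was Oasl2 (-1.24). Usp18 overlaps Gm44148 on the other strand and is uncertain. By the same rule 5.51% of all genes were higher and 6.23% lower in males, and 4.32% were higher and 5.33% lower in females.

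The 3 type I genes with the highest level per kb were above equality in the libraries labelled TCR1640. Stat2, a factor that carries the type I signal to the nucleus, had 71.3 CPM in both males and females labelled TCR1640, against 50.8 and 50.5 CPM in males and females labelled SJL/J. Zbp1, a sensor of nucleic acids, had 49.3 and 55.4 CPM in males and females labelled TCR1640, against 31.9 and 30.8 CPM in males and females labelled SJL/J. Ifi27l2a had 16.9 and 20.4 CPM in males and females labelled TCR1640, against 12.8 and 11.5 CPM in males and females labelled SJL/J.

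Of 28 interferon gamma response genes 25 passed the filter, with a median log2 ratio of 0.11 in males and 0.46 in females. In males 1, Socs1, a feedback inhibitor of cytokine signals, was at least 2-fold higher (1.54) and 1, Ciita, was lower (-1.58). Ciita, the regulator of MHC class II genes, overlaps Dexi and is uncertain. In females Socs1 (1.07) was the only one past 2-fold. Igtp, an interferon-induced GTPase without overlap, had 89.6 and 109.9 CPM in males and females labelled TCR1640, against 71.7 and 75.7 CPM in males and females labelled SJL/J. Irf1, which overlaps Gm17334, stood at 0.85 in males and 0.79 in females, and Gbp2, which overlaps Mir6381, at -0.14 and 0.60.

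Of 23 genes for interferons, their receptors and their signalling, 19 passed the filter, and none was at least 2-fold lower in either sex. In males 3 were higher, namely Socs3 (1.89), Socs1 (1.54) and Jak1 (1.01), which overlaps Raver2. In females 5 were higher, namely Il10rb (1.90), Socs3 (1.58), Ifngr2 (1.41), Usp18 (1.09) and Socs1 (1.07). Ifngr1, a chain of the interferon gamma receptor, had 135 and 152 CPM in males and females labelled TCR1640, against 132 CPM in both males and females labelled SJL/J. The type I and type III interferon genes Ifnb1, Ifna4 and Ifnl3 had 0 counts in all 8 columns. A count of 0 allows up to 3 counts, or 0.301 to 0.385 CPM in the summed libraries.

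Other antiviral factors differed in both directions. Of 11 listed, all passed the filter, with a median of 0.07 in males and 0.04 in females. Samhd1, which depletes nucleotides that retroviruses need, had 315 and 353 CPM in males and females labelled TCR1640, against 110.0 and 109.9 CPM in males and females labelled SJL/J. It was the only one at least 2-fold higher, at 1.52 in males and 1.68 in females. March8, a ubiquitin ligase of viral envelope proteins, was the only one lower, at -1.78 in males and -2.07 in females. Zc3hav1 stood at 0.57 and 0.38, and Serinc3, which overlaps 0610039K10Rik, at -0.31 and 0.03.

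Among 8 genes whose products bind, modify or cleave alongside Ifitm3, none was at least 2-fold lower. The kinase Fyn stood at 0.85 in males and 0.68 in females. Vapa, an endoplasmic reticulum anchor, stood at -0.42 and -0.11. The methyltransferase gene Setd7, which overlaps 5031434O11Rik, stood at 1.10 and 0.99.

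**Figure D4:**
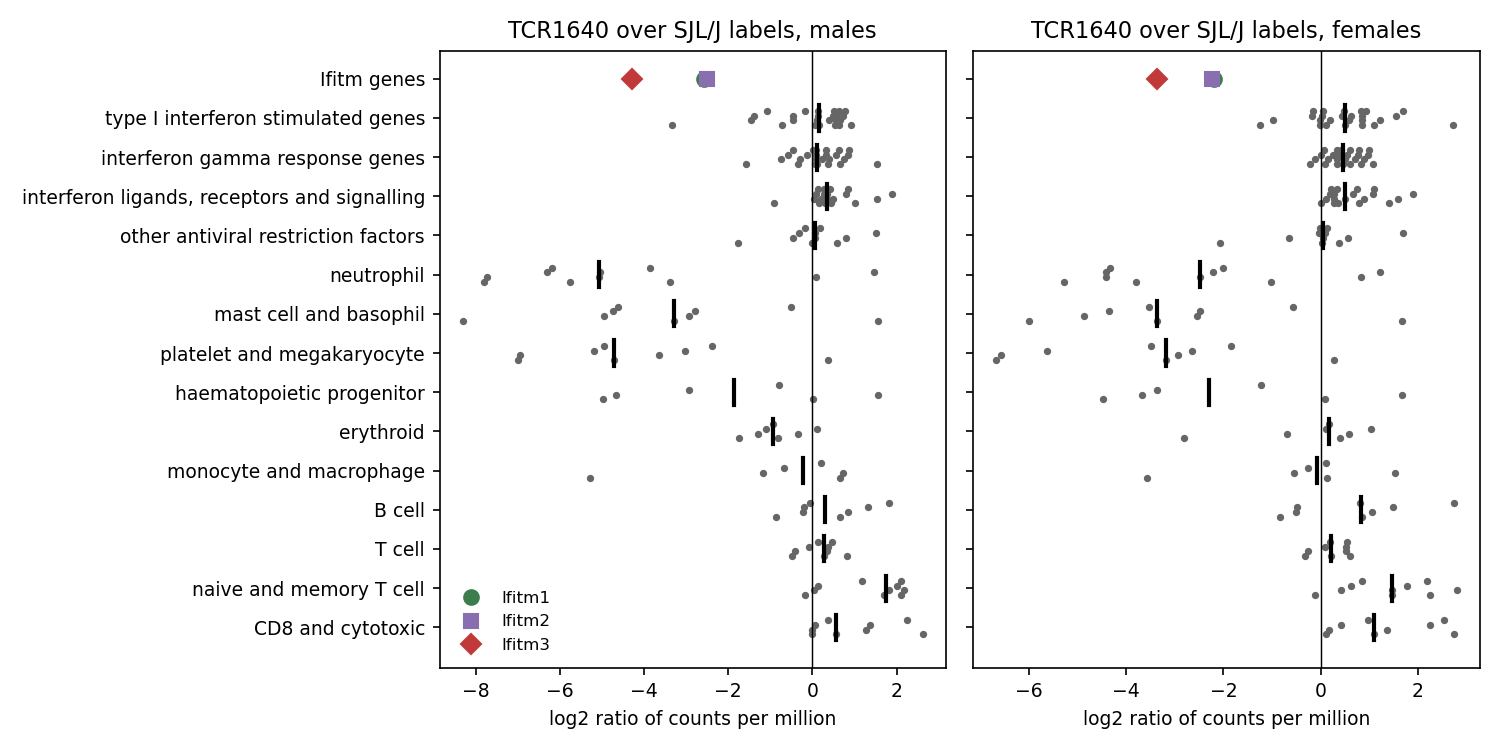
Log2 ratios of the libraries labelled TCR1640 over those labelled SJL/J, in males and in females, for the 3 Ifitm genes (coloured) and for listed genes that passed the filter (grey points, black bars at the medians). The medians of the type I, interferon gamma and signalling lists lie above 0 (0.17, 0.11 and 0.34 in males, 0.50, 0.46 and 0.50 in females), while those of the neutrophil, mast cell and basophil, platelet and progenitor (-1.87 in males, -2.29 in females) lists lie on the side of the Ifitm genes. Over the 3 progenitor genes without opposite-strand overlap the median is 0.03 in males and 0.09 in females.

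Markers of other cell types moved with the Ifitm genes, and their part in the result was not tested. For this and the following lists, the share lower over all genes was 6.23% in males and 5.33% in females. Of 15 neutrophil markers, 11 passed the filter, and 9 of them were at least 2-fold lower in the library labelled TCR1640 in each sex. Their summed level was 16.5 and 21.4 CPM in males and females labelled TCR1640, against 184 and 74.8 CPM in males and females labelled SJL/J. S100a9, a neutrophil alarmin, had 3 and 5 counts in males and females labelled TCR1640, against 528 and 209 in males and females labelled SJL/J. S100a8 and Elane were at 0 in both libraries labelled TCR1640. Ngp had 14 and 33 counts in males and females labelled TCR1640, against 161 and 72 in males and females labelled SJL/J. Ly6g went the other way, at 1.46 in males and 1.23 in females.

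Of 12 mast cell and basophil markers, 9 passed and 7 were lower in each sex. Their summed level was 71.3 and 66.3 CPM in males and females labelled TCR1640, against 129 and 108 CPM in males and females labelled SJL/J. Most of the sum in the libraries labelled TCR1640 is Kit, which was higher there, at 1.56 in males and 1.67 in females. Mcpt8, a basophil protease, had 1 and 6 counts in males and females labelled TCR1640, against 250 and 187 in males and females labelled SJL/J. Cpa3 had 10 and 9 counts in males and females labelled TCR1640, against 77 and 56 in males and females labelled SJL/J. Tpsb2 was at 0 in both libraries labelled TCR1640 and in females labelled SJL/J.

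Of 10 platelet and megakaryocyte markers, 9 passed and 8 were lower in each sex. Their summed level was 112 and 117 CPM in males and females labelled TCR1640, against 446 and 311 CPM in males and females labelled SJL/J. Pf4, a platelet chemokine, had 7 and 4 counts in males and females labelled TCR1640, against 682 and 436 in males and females labelled SJL/J. Ppbp and Treml1 were at 0 in both libraries labelled TCR1640. Gp1ba, which carries most of the sum in those libraries, stood at 0.37 in males and 0.27 in females.

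Genes of blood progenitors were divided. Of 8 listed, 6 passed the filter, with a median log2 ratio of -1.87 in males and -2.29 in females, and 3 were at least 2-fold lower in males and 4 in females. Cd34 had 13 and 9 counts in males and females labelled TCR1640, against 323 and 215 in males and females labelled SJL/J, but it overlaps Gm16897 on the other strand. Meis1, which overlaps Gm16140, had 9 and 8 counts in males and females labelled TCR1640, against 181 and 109 in males and females labelled SJL/J. Sox4, which overlaps Gm26735, stood at -0.80 in males and -1.22 in females. The 3 members without overlap were Gata2, lower in both sexes (-2.94 and -3.36), Kit, higher in both (1.56 and 1.67), and Ly6a, an interferon-inducible surface antigen, at 0.03 and 0.09. The list summed to 258 and 222 CPM in males and females labelled TCR1640, against 312 and 243 CPM in males and females labelled SJL/J, with Spink2 at 0 in all 4 groups.

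Erythroid, monocyte, dendritic and stromal lists held fewer genes past 2-fold. The 14 monocyte and macrophage markers summed to 167 and 177 CPM in males and females labelled TCR1640, against 187 and 186 CPM in males and females labelled SJL/J, with Ms4a7 and C1qb at 0 in all 4 groups. Of the 6 that passed, Lyz2 was lower in both sexes, at -5.27 in males and -3.56 in females. Ccr2 was also lower in males (-1.18) and stood at -0.54 in females, while Itgam was higher in females (1.53) and stood at 0.66 in males. Csf1r, which overlaps Hmgxb3, stood at 0.21 and 0.11 and carries most of the monocyte and macrophage sums. It had 132 and 129 CPM in males and females labelled TCR1640, against 114 and 119 CPM in males and females labelled SJL/J. Over the 5 that passed and have no overlap, the median was -0.67 in males and -0.26 in females. The 9 erythroid markers summed to 41.6 and 45.8 CPM in males and females labelled TCR1640, against 72.0 and 42.9 CPM in males and females labelled SJL/J. Of the 7 that passed, 3 were lower in males, namely Klf1 (-1.75), Hbb-bt (-1.29) and Hba-a2 (-1.11), with a median of -0.94. In females Klf1 was lower (-2.81) and Hba-a1 higher (1.04), with a median of 0.17. The 9 dendritic cell markers summed to 356 and 412 CPM in males and females labelled TCR1640, against 364 and 369 CPM in males and females labelled SJL/J, with Cd209a at 0 throughout. Only 4 of the 9 passed the filter, and Xcr1 carries most of these sums. It had 302 and 358 CPM in males and females labelled TCR1640, against 320 and 327 CPM in males and females labelled SJL/J. The 10 stromal and endothelial markers summed to 86.4 to 93.2 CPM in the 4 groups, nearly all of it Pecam1, and the other 9 stayed under the filter.

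Among the T cell, B cell and NK cell lists, no gene that passed the filter was at least 2-fold lower in the libraries labelled TCR1640 by the same rule. The 9 T cell markers all passed and summed to 1520 and 1460 CPM in males and females labelled TCR1640, against 1330 and 1210 CPM in males and females labelled SJL/J, and none was 2-fold apart. Among them Trac stood at -0.41 in males (-0.52 to -0.30) and -0.27 in females (-0.39 to -0.14), and Cd28 at -0.49 and -0.32. The 10 B cell markers summed to 56.0 and 55.1 CPM in males and females labelled TCR1640, against 42.1 and 35.8 CPM in males and females labelled SJL/J. Of the 8 that passed, 2 were higher in males and 3 in females, while Cd22, which overlaps a gene on the other strand, stood at -0.87 in males and -0.51 in females. Of 10 naive and memory T cell markers, 7 were at least 2-fold higher in males and 6 in females, with medians of 1.75 and 1.47. Tcf7 had 484 and 432 CPM in males and females labelled TCR1640, against 107 and 125.5 CPM in males and females labelled SJL/J. Of the 9 CD8 and cytotoxic markers that passed, 4 were higher in males and 5 in females, among them Cd8b1 at 2.25 and 2.53. Over all genes the share higher was 5.51% in males and 4.32% in females. The 7 NK cell markers summed to 31.5 and 48.6 CPM in males and females labelled TCR1640, against 21.5 and 18.9 CPM in males and females labelled SJL/J. Only 3 of them passed the filter, namely Klrk1, Gzma and Eomes, while Ncr1, Klrb1c, Klra8 and Klre1 stayed under it.

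The genes with the nearest pattern over the 4 groups were sought among 5809 genes without opposite-strand overlap and with a mean log2 CPM of at least 3. Likeness was the root mean square difference of log2 CPM after centring each gene over the 4 group sums. With only 4 points that share their libraries, this is a description. The nearest gene to Ifitm1 was Ifitm2, at a distance of 0.081 on the log2 scale, and the reverse held too. Cdh17, a cadherin, followed for Ifitm1 at 0.083, with 6.52 and 8.33 CPM in males and females labelled TCR1640, against 38.3 and 33.0 CPM in males and females labelled SJL/J. Col18a1, a basement membrane collagen, followed for Ifitm2 at 0.096, with strain-label ratios of -2.27 in males and -2.30 in females. Fam20a (0.174) and Itgb3 (0.191) stood near Ifitm1 as well. Itgb3, an integrin chain abundant on platelets, was also near Ifitm2 (0.152), as was Fam20a (0.168). The sixth places went to Gm47900 (0.218) for Ifitm1 and Mfsd2b (0.208) for Ifitm2.

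Ifitm3 lay farther from its relatives than from several unrelated genes. Ifitm1 was its 10th nearest gene, at 0.752, and Ifitm2 its 11th, at 0.789. Its nearest were Csf2rb2 (0.434), the mouse beta chain specific to the IL-3 receptor, and Csf2rb (0.440), the beta chain shared by the receptors for IL-3, IL-5 and GM-CSF. Csf2rb had 6.62 and 4.87 CPM in males and females labelled TCR1640, against 92.2 and 69.6 CPM in males and females labelled SJL/J. The 2 receptor genes are close copies of each other, so their counts may be shared. Itga2b, the integrin chain of megakaryocytes and platelets, stood at 0.442, Serpina3g at 0.479, the olfactory receptor gene Olfr525 at 0.550 and Gata2, a factor of mast cells and progenitors, at 0.610. In each of Csf2rb2, Csf2rb, Itga2b, Serpina3g and Gata2 the male labelled TCR1640 stood level with or above the female (log2 sex ratios of 0.38, 0.44, 0.01, 0.10 and 0.64), whereas Ifitm3 and Olfr525 stood below (-0.78 and -1.07).

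**Figure D5:**
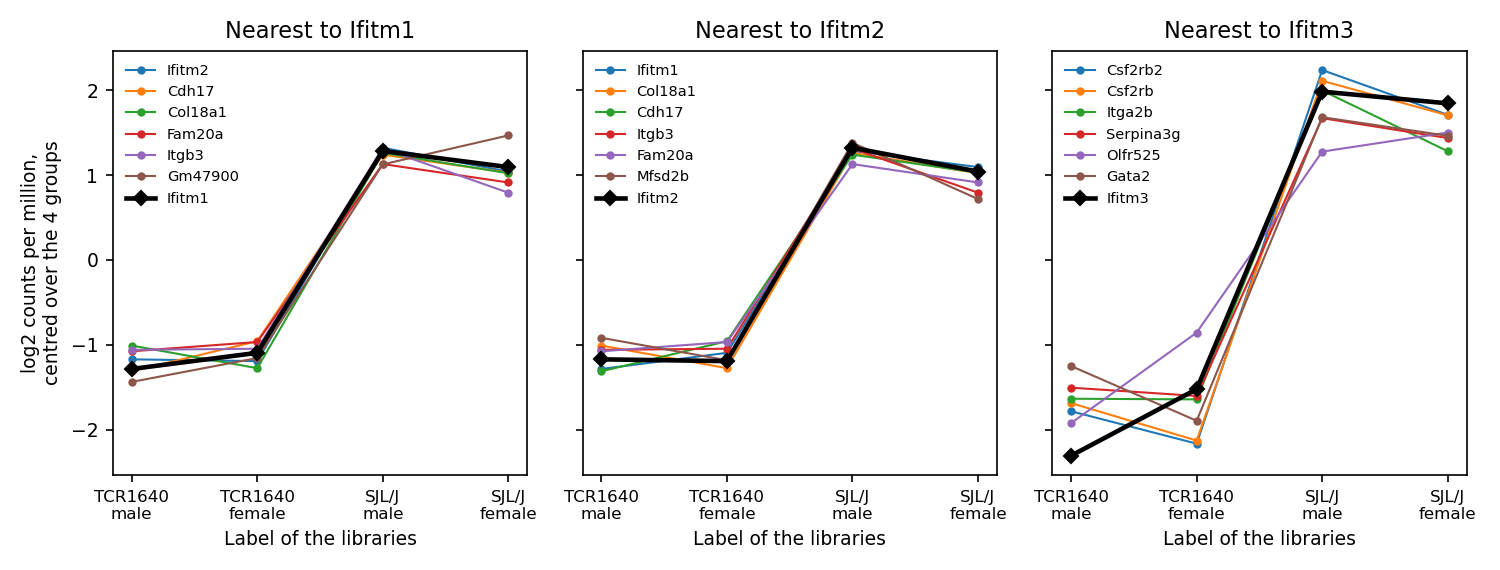
Log2 CPM, centred over the 4 groups, of each Ifitm gene (black) and the 6 genes nearest to it (coloured), 1 sample a group. The lines for Ifitm1 and Ifitm2 run close together, while Ifitm3 has a lower point in males labelled TCR1640 than any of its 6 nearest genes.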

How the data were processed

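Polyadenylated RNA of 8 libraries was counted per gene from 500 ng of RNA, with a KAPA stranded mRNA kit per the labels' protocols. The values the authors deposited are raw read counts by Ensembl identifier. Tools given in the submitters' processing notes are HTSeq, Bowtie2 and bcl2fastq 2.17, with the build mm10. The annotation release is not given in the sources used here. Of 52636 identifiers, 147 were not in GENCODE M21. Groups and column numbers came from the sample titles. Nothing in the labels says whether columns came from separate mice. After a chi-square check (genes of 20 counts or more, Gm43333 excluded), the 2 columns of a group were summed.

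Ratios are of summed counts on TMM library sizes (edgeR 4.0.16, R 4.3.3) over 15793 genes passing filterByExpr, with exact conditional binomial 95% intervals (scipy 1.17.1). A group at 0 counts was set at 3 counts, and a gene with at most 3 counts in both groups got no ratio. Intervals and floors cover counting error only. A gene is counted as higher or lower at 2-fold with an interval that excludes equality. Alternatives were RLE, upper-quartile and total scaling, no filter, non-overlapped genes, 1.5-fold, a mean log2 CPM of at least 3, edgeR and DESeq2 1.42.0 fits of 8 columns, the replicate number as a block, and leaving out each column. Intervals were checked on simulated counts that hold counting error only, so the check does not cover differences between samples. Named genes are the members, other Ifitm genes, the 6 nearest patterns, genes within 50 kb that passed the filter, copies that share sequence, and the 3 genes of each list with the highest level per kb. Listed genes past 2-fold and others outside this rule were named after their values were seen. The members and all lists were chosen with earlier results of these data known.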

Additional observations from a re-analysis of the deposited data

Results flagged for a closer look

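Ifitm3 differed between the sexes in opposite directions under the 2 strain labels. Both columns of males labelled TCR1640 lay below both columns of females labelled TCR1640, and both columns of males labelled SJL/J lay above both of females labelled SJL/J. The difference of the 2 log2 sex ratios was -0.92 and was not tested. Ifitm1 showed the same opposite directions in its columns, with a difference of -0.38, which was not tested either. Its interval in the libraries labelled TCR1640 includes equality (-0.40 to 0.02). Of all ranked genes, 28.0% had a sex ratio at or below that of Ifitm1 under the TCR1640 label, and 74.5% under the SJL/J label. For Ifitm3 these shares were 3.8% and 68.0%, so only its ratio labelled TCR1640 lay far out among all genes. The columns of a group were counted as 1 sample, so these directions rest on 1 library per group.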

How the results depend on the processing

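Every log2 ratio of a member whose interval excluded equality kept its direction under the alternatives, 192 values in all with those that included it. The sex ratio of Ifitm2 in the libraries labelled TCR1640, whose interval includes equality, took either sign, from -0.04 to 0.08, when 1 column was left out. Leaving out 1 column moved Ifitm3 between strain labels to between -4.45 and -4.15 in males and between -3.44 and -3.30 in females, and its sex ratio in the libraries labelled TCR1640 to between -0.94 and -0.64. With the replicate number as a block (replicate block), Ifitm1 stood at -2.57 in males and -2.19 in females, and Ifitm3 at -4.29 and -3.37. Every group holds both numbers, so a block can hardly move these ratios, and the setting is no check of them. Deviations of same-numbered columns correlated at -0.02 to 0.03. The columns of a group differed by hardly more than sampling noise, so this cannot show whether the numbers pair the samples.

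Counts over all genes depended more on the rule. With a mean log2 CPM of at least 3, fewer genes were tested, 10264 between strain labels in males and 10265 in females. Of these, 398 were higher and 279 lower in males (3.88% and 2.72%). In females 273 were higher and 225 lower (2.66% and 2.19%). Between sexes, of 10265 genes, 7 were higher and 55 lower in the libraries labelled TCR1640, and 2 higher and 29 lower in those labelled SJL/J. At 1.5-fold the counts were 1935 higher and 2079 lower in males, 1632 and 1750 in females, 427 and 828 between sexes labelled TCR1640, and 477 and 615 between sexes labelled SJL/J. Over non-overlapped genes alone, 533 were higher and 631 lower of 9994 in males, and 508 lower of 9990 in females. These are 5.33%, 6.31% and 5.09%, against 5.51%, 6.23% and 5.33% over all genes. The counts thus fell with the number of genes tested, while the shares moved little. For the interferon lists 2 settings were added after seeing the data: over non-overlapped genes 0 interferon gamma response genes were lower in males, and with RLE size factors 2 type I genes were lower in females. The other 51 gene counts stayed within 1.5 times. With 1 sample a group, these values limit counting error only, and low counts of Ifitm2 widen its intervals.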
